A study of Homo sapiens with 6 samples.

Results

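Glucose output and glycogen handling were followed through 10 genes in HepG2 cells, a line derived from a human hepatocellular carcinoma. The genes were taken by symbol from the 60240 Ensembl genes of the deposited expression table: PC, PCK2, PCK1, FBP1, G6PC1 (earlier named G6PC) and SLC37A4 for glucose output, and PPP1R3B, PPP1R3C, GYS2 and PYGL for glycogen. All 10 were found, and 9 passed the filter on low values. The study gave HepG2 cultures 100 ng/ml of recombinant GDF11, a secreted growth factor of the TGF-beta family, for 24 h, and compared 3 of them with 3 control cultures that the labels call only control. All cultures were kept in medium with high glucose and fetal bovine serum, per the labels' protocols, and no allele or transgene is named in either group. RNA was sequenced as single reads of 75 bases. HepG2 is a single tumour-derived line, and the labels call the cultures biological replicates.

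Hepatocytes make glucose in gluconeogenesis, which runs from pyruvate and other precursors through oxaloacetate and phosphoenolpyruvate to glucose 6-phosphate, and finally to free glucose in the endoplasmic reticulum. They also store glucose as glycogen, built by glycogen synthase and broken down by glycogen phosphorylase, with protein phosphatase 1 brought to the glycogen particle by glycogen-targeting subunits. In liver, glucagon and glucocorticoids raise transcription of the glucose output genes and insulin lowers it.

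Expression is given as variance-stabilised log2 values, with 5.52 for a gene that received no reads. The scale can be turned back into reads normalised to a common depth, and folds below are ratios of group means of these reads. Near the bottom the scale keeps only part of a true change: 0.327 of a log2 change at a value of 6.5, 0.696 at 8 and 0.914 at 10. Each library held an estimated 47924100 to 53374600 reads. The hepatocyte markers ALB, AFP, TTR, SERPINA1, APOA1, APOB, TF, HNF4A, FGB and RBP4 lay between 10.73 and 19.56 in every library. Of the markers fixed for other cell types, TEK and CLDN5 of 5 for endothelium, PTPRC and CD3E of 6 for blood cells and CFTR of 5 for bile duct cells were at the lowest value in all 6 libraries. Others were read in every library, among them VWF and CDH5 of the endothelial list, CD68 and LYZ of the blood cell list, KRT19 and SOX9 of the bile duct list and PDGFRB of the 6 fibroblast markers. For part of the genes control replicate 3 differed from the other 2 controls, and results that rest on it are given with and without it.

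G6PC1, SLC37A4 and PPP1R3C fell with GDF11, and none of the other 6 tested genes passed the test. G6PC1 and SLC37A4 encode the enzyme and the transporter that together release free glucose from glucose 6-phosphate, and their mean levels with GDF11 were 20.3% and 45.5% of the control. PPP1R3C, a glycogen-targeting subunit of protein phosphatase 1, stood at 60.2%. Thus 3 of 9 tested genes were lower and 0 higher, beside 10.8% lower and 11.7% higher among all 18723 tested genes (limma, Benjamini-Hochberg adjusted p under 0.05). At an unadjusted p under 0.05, PCK1 was also lower and PYGL and PPP1R3B were also higher. The share of all tested genes at this looser cut was not counted, and the shares above do not apply to it. The median log2 difference was -0.28 over the 9 genes and 0.0056 over all tested genes. Values of 6 of the 9 genes did not overlap between the groups, beside 40.5% of all tested genes. In bulk RNA, fewer cells with a transcript and less of it per cell cannot be told apart.

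**Figure D1:**
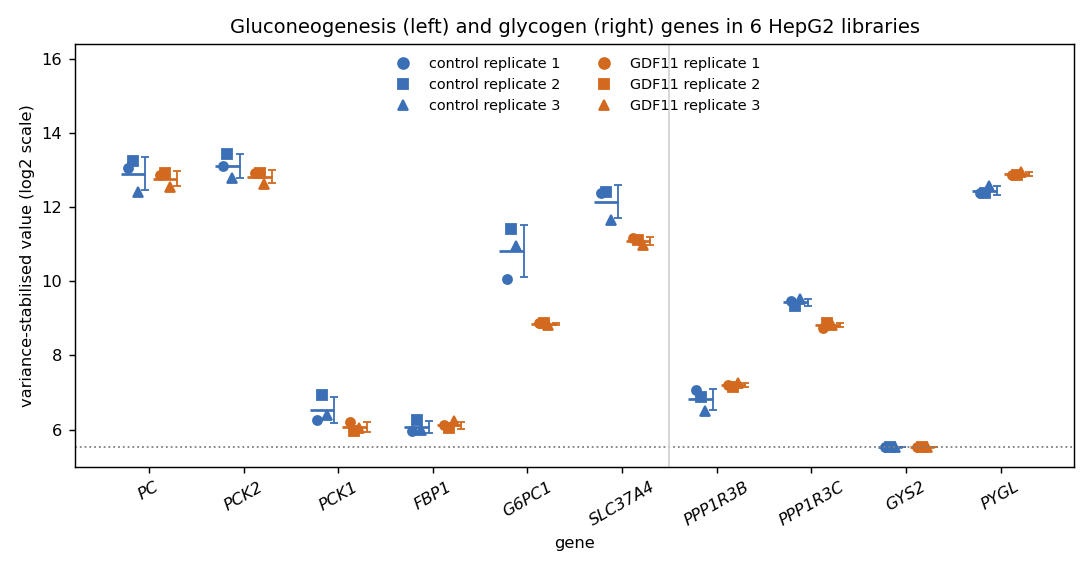
Variance-stabilised log2 values (vertical axis) of the 10 genes (horizontal axis) in each library. Blue marks are controls, orange marks are GDF11 cultures, marker shapes give the replicate number, horizontal lines are group means, bars are 1 SD (n = 3 each), and the dotted line is the value of a gene without reads. G6PC1 has widely spread controls, from 10.06 to 11.42, above 3 tightly grouped GDF11 values, and GYS2 lies on the dotted line throughout.

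Measured per length of transcript in control cultures, the 10 genes fell into 3 tiers. PCK2 stood highest at 4067 ± 916 normalised reads per kb of its canonical transcript (mean ± SD, n = 3). SLC37A4 followed at 2180 ± 614, PYGL at 1964 ± 165 and PC at 1806 ± 518. The control range of PCK2 lay above that of SLC37A4, while the ranges of SLC37A4 and PYGL and of PYGL and PC overlapped. G6PC1 at 442 ± 202 and PPP1R3C at 237 ± 16.3 formed a middle tier, again with overlapping control ranges. PPP1R3B at 7.46 ± 3.30, PCK1 at 5.97 ± 4.47 and FBP1 at 4.82 ± 2.93 were read at a very low level and overlapped one another. GYS2 was listed at the lowest value in every library. With GDF11, PYGL at 2688 ± 105 lay above SLC37A4 at 991 ± 73.3 in every library, while in the controls the ranges of both genes overlapped. That overlap came from control replicate 3, with SLC37A4 at 1471 and PYGL at 2153. In control replicates 1 and 2, SLC37A4 (2508 and 2560) lay above PYGL (1883 and 1855). PC likewise lay above PYGL in control replicates 1 and 2 (1956 and 2233) and below it in replicate 3 (1230).

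**Figure D2:**
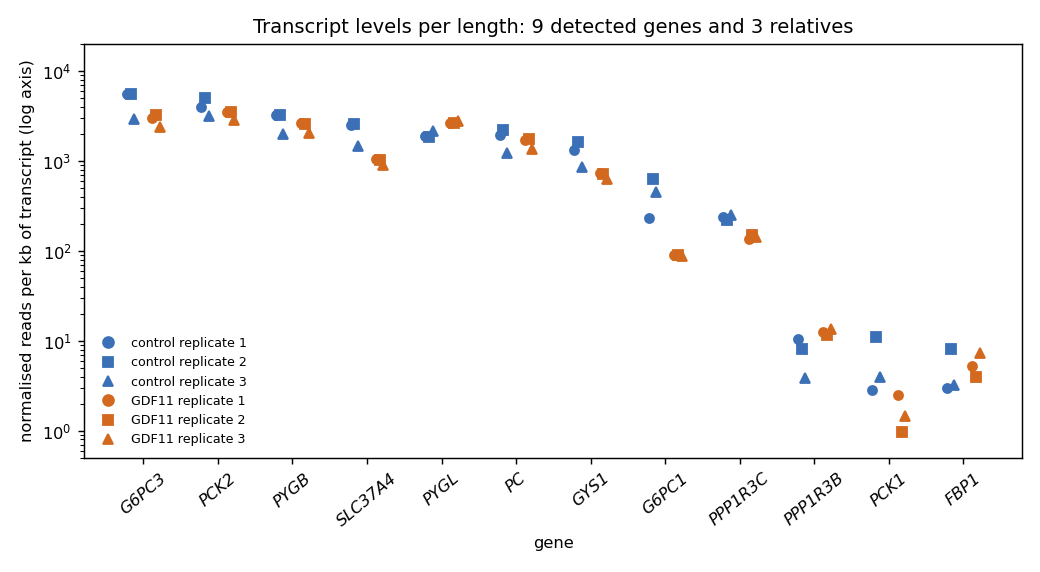
Normalised reads per kb of transcript on a log axis (vertical) for 9 of the 10 genes and 3 relatives, G6PC3, PYGB and GYS1 (horizontal axis, ordered by control mean). Blue marks are controls and orange marks GDF11 cultures, with marker shapes for the replicate number. GYS2 is left out because it was listed at the lowest value, and PPP1R3B, PCK1 and FBP1 lie far below the rest, at 4.82 to 7.46 reads per kb on average in controls.

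The last step of glucose output carried the largest difference. G6PC1 encodes the catalytic subunit of glucose-6-phosphatase, which removes the phosphate from glucose 6-phosphate. The gene (ENSG00000131482.10) lies on chromosome 17, 42900799 to 42914438 of GRCh38. Its promoter is shown because this gene had the largest difference of the 10 and its promoter is a textbook site of hormone control. Capitals mark, in order, an HNF1 half-site, a CCAAT box read on the other strand, 2 insulin response element cores, a CRE-like palindrome, a TATA box and a SMAD element, all found by letter match on both strands and spelled out after the sequence. The sequence is the 250 bases before the RefSeq start (GRCh38.p14, chr17:42900549-42900798, plus strand).
G6PC1: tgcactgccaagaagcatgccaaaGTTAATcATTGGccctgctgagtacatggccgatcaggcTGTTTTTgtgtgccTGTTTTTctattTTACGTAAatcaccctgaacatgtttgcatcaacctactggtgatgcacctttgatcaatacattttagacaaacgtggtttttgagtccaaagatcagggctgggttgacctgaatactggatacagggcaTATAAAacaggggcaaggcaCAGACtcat

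The TATA box match (TATAAA) begins 29 bases before the start of G6PC1, and the matches to the insulin response core (TGTTTTT) begin 187 and 173 bases before it. Of 35116 promoter windows of this length in the RefSeq table, 10.7% hold the TATA box and 6.29% the insulin response core. The HNF1 half-site, searched as GTTAAT, is held by 6.23% and the CRE-like palindrome, searched as TTACGTAA, by 0.105%. The SMAD element, searched as CAGAC, is common, being held by 38.0%, and the CCAAT box by 32.0%. Windows were used for 7 of the 10 genes (FBP1, G6PC1, PC, PCK2, PPP1R3C, PYGL and SLC37A4). For the 10 genes, chromosome 8, where PPP1R3B lies, was left out of the search. Among the windows at the 5′ end of these genes, the TATA box, the insulin response core, the CRE-like palindrome and the HNF1 half-site were each held by G6PC1 alone. Windows at downstream starts held the insulin response core in PC and the TATA box in SLC37A4. The motifs were picked after the sequences had been seen, so neither the shares nor this count test anything. These matches are descriptions of letters, and binding was not measured.

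The value of G6PC1 was 10.06, 11.42 and 10.96 in the controls (replicates 1, 2 and 3, the order used throughout) and 8.87, 8.87 and 8.82 in the GDF11 cultures. The controls were widely spread and all lay above the GDF11 cultures, which were nearly equal. In normalised reads the controls held 974, 2651 and 1896, and the GDF11 cultures 379, 379 and 364. The log2 difference was -1.96 ± 0.30 (SE, 3 against 3, limma adjusted p = 0.00214), and the mean control level was 4.92 times that with GDF11. The SD of the controls was 0.69 against 0.027 with GDF11, so the size of the fall depends on which controls are used. It ranged from -2.34 without control replicate 1 to -1.66 without control replicate 2, and all 6 fits with 1 library left out called it. Control replicate 3 and GDF11 replicate 1, a single pair that tests nothing, share an RNA integrity number of 9.6 and read 10.96 and 8.87. After adjustment for that number the difference was -1.81 and was not called (adjusted p = 0.0534).

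SLC37A4 encodes the transporter that carries glucose 6-phosphate into the endoplasmic reticulum, where G6PC1 acts on it. It lies on chromosome 11, 119024112 to 119030877 (ENSG00000137700.18). The controls read 12.39, 12.42 and 11.64 and the GDF11 cultures 11.16, 11.12 and 10.97. Groups did not overlap, but control replicate 3 lay lower than the other controls, 0.58 of the way from their mean to the GDF11 mean. In normalised reads these were 5273, 5380 and 3091 against 2204, 2138 and 1910. SLC37A4 fell by 1.06 ± 0.22 on the log2 scale (adjusted p = 0.00926), the control mean being 2.2 times the GDF11 mean. Without control replicate 3 the difference was -1.32 (adjusted p = 0.000108). After adjustment for RNA integrity it was not called, at -0.47 (adjusted p = 0.218). A single culture pair with an equal RNA integrity number, control replicate 3 and GDF11 replicate 1, read 11.64 and 11.16 and tests nothing. Its promoter is shown beside that of G6PC1 because the products work as a pair and both genes fell; capitals mark a CCAAT box read on the other strand and 2 GC boxes (GGGCGG on either strand, held by 42.6% of all windows). The bases are the 250 before the most upstream RefSeq start in the table (GRCh38.p14, chr11:119030878-119031127, minus strand).
SLC37A4: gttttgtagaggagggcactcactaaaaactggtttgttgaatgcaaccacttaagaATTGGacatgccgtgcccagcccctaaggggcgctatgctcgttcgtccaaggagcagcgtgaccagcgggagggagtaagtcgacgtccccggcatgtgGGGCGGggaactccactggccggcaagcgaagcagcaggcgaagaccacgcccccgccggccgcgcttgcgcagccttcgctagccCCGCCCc

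The G6PC1 window has a GC content of 44% and the SLC37A4 window 63.2%. TATAAA is not found in this SLC37A4 window, and a match lies 30 bases before a second, downstream start of the gene. The ubiquitous relative of G6PC1, G6PC3, was read at 12.81 ± 0.52 in controls and 12.16 ± 0.22 with GDF11 and was not called (-0.64 ± 0.26, adjusted p = 0.102). Without control replicate 3, G6PC3 was called lower (-0.95, adjusted p = 0.00135), and with the RNA integrity covariate its difference was 0.10. Per kb of transcript, G6PC3 was read 8.80 to 23.6 times as much as G6PC1 in control replicates 1 and 2, 6.46 times in control replicate 3 and 27.3 to 35.3 times in the GDF11 cultures. G6PC2, an isoform of pancreatic islets, was at the lowest value in all 6 libraries.

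The entry steps of gluconeogenesis did not pass the test. PC encodes pyruvate carboxylase, which makes oxaloacetate from pyruvate in mitochondria, and lies on chromosome 11, 66848420 to 66958383 (ENSG00000173599.15). It read 13.06, 13.24 and 12.40 in controls and 12.86, 12.91 and 12.53 with GDF11. The groups overlapped, with the lowest value in control replicate 3. The difference was -0.13 ± 0.23 with a 95% interval of -0.66 to 0.39 (adjusted p = 0.709), and its sign turned with quantile normalization, with the RNA integrity covariate and when control replicate 2 was left out.

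PCK2 and PCK1 encode the mitochondrial and cytosolic forms of phosphoenolpyruvate carboxykinase, which turns oxaloacetate into phosphoenolpyruvate. PCK2 (ENSG00000100889.12, chromosome 14, 24094171 to 24104125) read 13.10, 13.43 and 12.78 in controls and 12.92, 12.93 and 12.62 with GDF11. The groups overlapped, and again control replicate 3 was the lowest control. The difference of PCK2 was -0.28 ± 0.19 (95% interval -0.72 to 0.16, adjusted p = 0.328). Without control replicate 3 it was called, at -0.44 (adjusted p = 0.0457), and with the RNA integrity covariate the sign turned to 0.23.

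PCK1, the form under strong hormonal control in liver, was barely read in these cells. The gene lies on chromosome 20, 57561110 to 57568121 (ENSG00000124253.11). Its controls held 12.4, 47.9 and 17.1 normalised reads and its GDF11 cultures 10.8, 4.2 and 6.28. All GDF11 values lay below all controls, though control replicate 1 and GDF11 replicate 1 were close. On the variance-stabilised scale the means were 6.53 ± 0.36 and 6.07 ± 0.13, a difference of -0.46 ± 0.17 that was not called (adjusted p = 0.0888). On a scale of log2 reads plus 1, which compresses low values less, it was -1.58 (adjusted p = 0.0724). Per kb of transcript, PCK2 was read 453 to 1391 times as much as PCK1 in the controls and 1410 to 3634 times as much with GDF11.

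FBP1 encodes liver fructose 1,6-bisphosphatase, which catalyses the step from fructose 1,6-bisphosphate to fructose 6-phosphate and is often silenced in liver cancer. It lies on chromosome 9, 94603133 to 94640263 (ENSG00000165140.11). It held 4.41, 12.1 and 4.81 normalised reads in controls and 7.68, 5.84 and 10.9 with GDF11, just above the filter. The groups overlapped, with control replicate 2 the highest of all 6. The difference was 0.05 ± 0.11 (95% interval -0.20 to 0.30, adjusted p = 0.770). FBP2, the muscle form, was also near the lowest value, between 5.52 and 5.88, and was not tested. At this depth neither gene allowed a difference to be seen in these cells.

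Among the glycogen genes, PPP1R3C fell, while PYGL and PPP1R3B, though higher in every GDF11 culture than in any control, missed the threshold. PPP1R3C encodes a targeting subunit (also called PTG) that brings protein phosphatase 1 to glycogen, where the phosphatase activates glycogen synthase. It lies on chromosome 10, 91628442 to 91633071 (ENSG00000119938.9). The controls read 9.46, 9.34 and 9.51 and the GDF11 cultures 8.75, 8.87 and 8.82. Both groups were tight and did not overlap, and control replicate 3 was the highest of all. In normalised reads the controls held 613, 558 and 638 and the GDF11 cultures 345, 379 and 365. PPP1R3C fell by 0.62 ± 0.14 on the log2 scale (adjusted p = 0.0135), the control mean being 1.66 times the GDF11 mean. This call remained with the RNA integrity covariate (-0.74, adjusted p = 0.0413) and without control replicate 3 (-0.58, adjusted p = 0.00866). Leaving out a GDF11 library ended it each time, at -0.59 for replicate 1 (adjusted p = 0.0751), -0.65 for replicate 2 (adjusted p = 0.0507) and -0.62 for replicate 3 (adjusted p = 0.0558). The 250 bases before its RefSeq start are shown because it was the glycogen gene that fell (GRCh38.p14, chr10:91633072-91633321, minus strand), with a CCAAT box on the other strand and an E-box (CACGTG, held by 6.35% of all windows) in capitals.
PPP1R3C: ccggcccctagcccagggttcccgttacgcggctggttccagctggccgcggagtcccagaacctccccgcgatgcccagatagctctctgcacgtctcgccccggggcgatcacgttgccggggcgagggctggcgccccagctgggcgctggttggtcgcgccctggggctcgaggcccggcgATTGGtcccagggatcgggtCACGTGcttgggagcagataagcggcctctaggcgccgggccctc

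The E-box of the PPP1R3C window begins 45 bases before the start, and no CACGTG match lies in the first windows of the other 6 genes. The window has a GC content of 72.4%. The 3 promoters printed share no searched motif other than CCAAT, and the SMAD letters CAGAC occur in that of G6PC1 but not in those of SLC37A4 and PPP1R3C. The motifs were picked after the sequences had been seen.

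PPP1R3B encodes the liver-typical targeting subunit of protein phosphatase 1 and lies on chromosome 8, 9136255 to 9151539 (ENSG00000173281.5). It held 57.4, 44.5 and 21.5 normalised reads in controls and 69.6, 63.8 and 75.2 with GDF11. The GDF11 cultures all lay above the controls, and control replicate 3 was the lowest. The difference of 0.39 ± 0.16 was not called (95% interval 0.031 to 0.74, adjusted p = 0.109). It was 0.22 without control replicate 3 (adjusted p = 0.195), and its sign turned to -0.060 when library trends on transcript GC content and length were also removed. Per kb of transcript, PPP1R3C was read 23.2 to 64.5 times as much as PPP1R3B in controls and 10.5 to 12.9 times as much with GDF11.

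PYGL encodes liver glycogen phosphorylase, which releases glucose 1-phosphate from glycogen. It lies on chromosome 14, 50905217 to 50944483 (ENSG00000100504.17). The controls read 12.39, 12.37 and 12.58 and the GDF11 cultures 12.86, 12.87 and 12.96. The groups did not overlap, and control replicate 3 was the control nearest to the GDF11 cultures. Normalised reads were 5271, 5191 and 6027 in controls and 7337, 7375 and 7862 with GDF11, a mean 1.37 times the control. The difference of 0.45 ± 0.14 lay at the threshold and was not called (95% interval 0.13 to 0.77, adjusted p = 0.0501). Without control replicate 3 it was called, at 0.52 (adjusted p = 0.00589), and with the RNA integrity covariate it was 0.27 (adjusted p = 0.351). PYGB, the brain form of the enzyme, was not called with all libraries (-0.19 ± 0.22, adjusted p = 0.563) and was called lower without control replicate 3 (-0.43, adjusted p = 0.0348). Per kb of transcript PYGB was read 0.915 to 1.74 times as much as PYGL in controls and 0.733 to 1.001 times as much with GDF11.

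GYS2 encodes liver glycogen synthase and lies on chromosome 12, 21532577 to 21604847 (ENSG00000111713.3). It was listed at the lowest value, 5.52, in all 6 libraries and was not tested. Whether the cells lack this RNA or the quantification missed it cannot be read from the table. GYS1, the form known from muscle and most other tissues, was read at 12.13 ± 0.45 in controls and 11.32 ± 0.13 with GDF11. GYS1 fell by 0.80 ± 0.22 on the log2 scale (adjusted p = 0.0320). This call was lost on leaving out control replicate 1 (-0.76) or 2 (-0.61) or GDF11 replicate 1 (-0.86), 2 (-0.82) or 3 (-0.73). Adjustment for RNA integrity also ended it (-0.16).

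**Figure D3:**
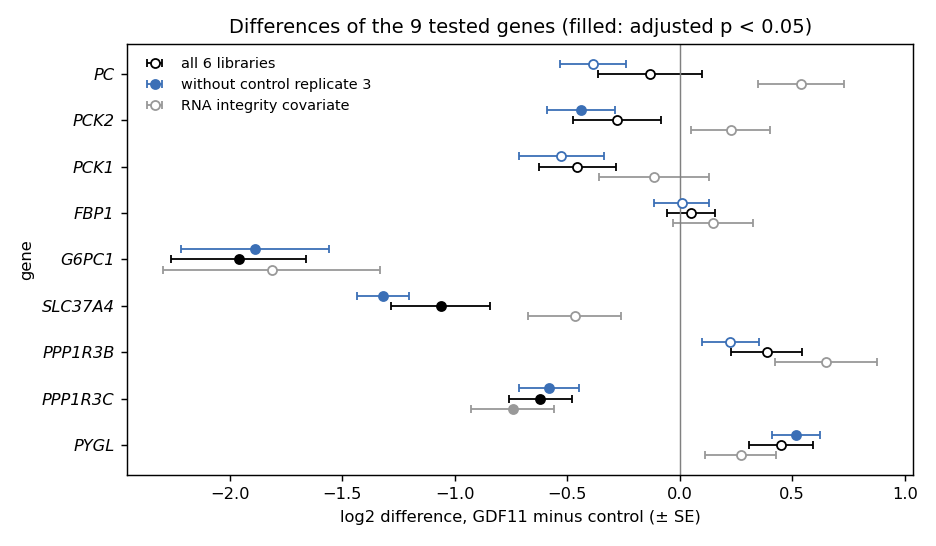
Log2 differences, GDF11 minus control (horizontal axis), of the 9 tested genes (vertical axis) with all 6 libraries (black), without control replicate 3 (blue) and after adjustment for RNA integrity (grey). Points are limma estimates, bars 1 SE, and filled points have an adjusted p under 0.05. G6PC1 and SLC37A4 are called with all libraries and without control replicate 3 but not with the covariate, and PPP1R3C is called in all 3 fits.

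Without control replicate 3, the lower genes numbered 4 (G6PC1, SLC37A4, PPP1R3C and PCK2) and the higher 1 (PYGL), beside 21.3% lower and 19.5% higher among all tested genes. With the RNA integrity covariate only PPP1R3C was called among the 9, beside 3.85% lower and 6.14% higher. The RNA integrity number lay between 9.6 and 9.9 in the controls and between 9.4 and 9.6 with GDF11, so that this number and the treatment are largely confounded and cannot be told apart. Of the hepatocyte markers, 6 of 10 were lower and 0 higher, beside 10.8% lower and 11.7% higher among all tested genes. Not called were SERPINA1, the most read of them (0.055 ± 0.26), APOA1 (-0.93 ± 0.29), TF (-0.37 ± 0.21) and HNF4A (-0.46 ± 0.15). The summed normalised reads of the 10 were 1547110 to 2070364 in controls and 1244059 to 1383003 with GDF11. Some markers of other cell types moved as well. Of the bile duct list, KRT19 (1.48 ± 0.21, adjusted p = 0.00153) and KRT7 (0.71 ± 0.18, adjusted p = 0.0206) rose and SOX9 fell (-0.54 ± 0.16, adjusted p = 0.0366). EPCAM was not called (0.090 ± 0.21). The summed reads of the list were 18628 to 19753 in controls and 30465 to 34312 with GDF11. The rise of this sum came mostly from KRT19, with a mean of 8339 in controls and 23089 with GDF11. Of the fibroblast list, PDGFRB rose (0.92 ± 0.23, adjusted p = 0.0227), with sums of 760 to 1488 and 1932 to 2563. These sums are nearly all PDGFRB, which held 751, 1185 and 1472 reads in the controls. THY1 was not called, and COL1A2, PDGFRA, DCN and LUM were near the lowest value and not tested. LYZ of the blood cell list fell (-1.19 ± 0.16, adjusted p = 0.000973), with sums of 68881 to 80413 and 32544 to 34213. LYZ itself made up most of these sums, with means of 69877 and 30471 reads. CD68 (-0.044 ± 0.18), CD14 (-0.76 ± 0.26) and CD79A (-0.19 ± 0.10) of the same list were not called. VWF of the endothelial list fell (-0.87 ± 0.15, adjusted p = 0.00344), with sums of 53 to 97 and 13 to 33. CDH5 of that list was not called (-0.16 ± 0.15). The part of these marker changes in the differences of the 10 genes was not tested.

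Other genes of gluconeogenesis and precursor supply were described through a list of 25, of which 21 were tested. Of these 10 were lower (47.6%), 0 higher and 11 not called, beside 10.8% lower and 11.7% higher among all tested genes, with a median log2 difference of -0.59. GPD1 was the closest to a rise, higher in all 3 GDF11 cultures but not called (0.64 ± 0.22, adjusted p = 0.0679), and was named after its value was seen. MPC1, a subunit of the carrier that brings pyruvate into mitochondria ahead of PC, fell from 12.74 ± 0.29 to 10.84 ± 0.059 (SD, n = 3 each), the control being 3.92 times the GDF11 level. KHK, the ketohexokinase of fructose use, fell by 2.16 ± 0.22, and the control was 4.73 times the GDF11 level. GPT, the cytosolic alanine transaminase that feeds alanine carbon into pyruvate, fell by 1.11 ± 0.19. SLC25A10, the mitochondrial dicarboxylate carrier, fell by 1.23 ± 0.22. The count of lower genes was 4 without GDF11 replicate 1 and 5 without control replicate 2. It was 6 without control replicate 1, GDF11 replicate 2 or GDF11 replicate 3. Among all 18723 tested genes, leaving out 1 library in turn gave 955 to 3993 lower. The lower genes of the list numbered 13 without control replicate 3 (beside 21.3% of all tested genes) and 2 with the RNA integrity covariate (beside 3.85%). Of the named genes, MPC1 and KHK kept their calls with that covariate, while GPT (-0.66, adjusted p = 0.0955) and SLC25A10 (-0.63, adjusted p = 0.1005) lost theirs.

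Other glycogen genes, a list of 28 with 27 tested, held genes called in both directions: 5 were higher (18.5%), 5 lower (18.5%) and 17 not called, with a median log2 difference of -0.19. Among all tested genes 11.7% were higher and 10.8% lower, so that these shares are not far from the background. STBD1, a glycogen-binding protein of lysosomal glycogen turnover, rose from 8.09 ± 0.22 to 9.45 ± 0.0074, to 3.21 times the control. UGP2, which makes UDP-glucose for glycogen synthesis, rose by 0.96 ± 0.20 and PPP1CB, a catalytic subunit of protein phosphatase 1, by 0.80 ± 0.19. NHLRC1, the ubiquitin ligase malin, rose by 0.44 ± 0.11 from a low level. On the lower side stood GYG2, the liver-expressed glycogenin that primes glycogen chains (-1.48 ± 0.15), and PGM1, the phosphoglucomutase linking glucose 1-phosphate and glucose 6-phosphate (-1.15 ± 0.21). PPP1CC, another catalytic subunit of protein phosphatase 1, fell by 0.54 ± 0.14 and the muscle phosphorylase gene PYGM by 0.40 ± 0.094, from 6.37, a value at which few reads were counted. GBE1, the branching enzyme (-0.44 ± 0.16, adjusted p = 0.0878), was not called. Without control replicate 3 the list had 6 higher and 10 lower (beside 19.5% and 21.3% of all tested genes), and with the RNA integrity covariate 1 and 2 (beside 6.14% and 3.85%). That covariate ended the calls of UGP2 (0.54, adjusted p = 0.188), PPP1CB (0.32, adjusted p = 0.349), NHLRC1 (0.55, adjusted p = 0.0776), PGM1 (-0.58, adjusted p = 0.0711) and PYGM (-0.33, adjusted p = 0.241). PPP1CB also lost its call without control replicate 1 (0.82), control replicate 2 (0.66) or GDF11 replicate 3 (0.65), and NHLRC1 without control replicate 2 (0.43) or GDF11 replicate 1 (0.41) or 2 (0.40). PPP1CC lost its call without control replicate 1 (-0.53) or any GDF11 library (-0.60 to -0.49), with quantile normalization (-0.38) and with no filter on low values (-0.54). PYGM lost it without control replicate 1 (-0.39) or 2 (-0.36) or GDF11 replicate 1 (-0.36) or 3 (-0.41). The higher genes numbered 2 to 3 and the lower 2 to 3 when any other single library was left out. Among all 18723 tested genes, leaving out 1 library in turn gave 1397 to 3647 higher and 955 to 3993 lower. STBD1 and GYG2 were called in all of the alternatives tried.

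Of 30 regulators, 29 were tested, with 2 higher (6.9%), 9 lower (31.0%), 18 not called and a median log2 difference of -0.39, beside 11.7% higher and 10.8% lower among all tested genes. KLF15, a transcription factor that raises gluconeogenic genes in fasting liver, fell from 8.01 ± 0.22 to 6.54 ± 0.054, the control being 7.35 times the GDF11 level. ONECUT1, the hepatocyte factor HNF6, fell by 0.93 ± 0.18, FOXA2 by 0.83 ± 0.18 and CEBPB by 0.76 ± 0.18. PPARGC1A, the coactivator that drives G6PC1 and PCK1 in fasting, read 9.43, 9.40 and 10.20 in controls and 8.45, 8.34 and 9.26 with GDF11. The groups of PPARGC1A did not overlap, and it fell by 0.99 ± 0.29 (adjusted p = 0.0408), which was lost on leaving out control replicate 1 (-1.12), 2 (-1.13) or 3 (-0.73) or GDF11 replicate 1 (-0.88) or 2 (-0.82). FOXO1, the insulin-restrained activator of G6PC1, rose by 0.87 ± 0.17 (adjusted p = 0.00803), opposite in sign to G6PC1. IRS1, an insulin receptor substrate, rose by 0.79 ± 0.18. HNF4A was not called with all libraries (-0.46 ± 0.15, adjusted p = 0.0536) and was called lower without control replicate 3 (-0.48, adjusted p = 0.0138). The glucagon receptor gene GCGR was near the lowest value and not tested. With the RNA integrity covariate 3 regulators were lower and 0 higher (beside 3.85% and 6.14% of all tested genes), and without control replicate 3 the counts were 12 and 5 (beside 21.3% and 19.5%). KLF15, ONECUT1 and PPARGC1A (-1.85, adjusted p = 0.00654) kept their calls with the covariate, while FOXA2 (-0.42, adjusted p = 0.222), CEBPB (-0.45, adjusted p = 0.264), FOXO1 (0.46, adjusted p = 0.162) and IRS1 (0.47, adjusted p = 0.273) lost theirs. FOXA2 also lost its call without GDF11 replicate 3 (-0.79), CEBPB without GDF11 replicate 1 (-0.76) or 3 (-0.72), and IRS1 without control replicate 1 (0.63) or GDF11 replicate 1 (0.82), 2 (0.79) or 3 (0.76). The numbers lower were 3 to 5 and the numbers higher 1 to 2 when any other single library was left out. Among all 18723 tested genes, leaving out 1 library in turn gave 955 to 3993 lower and 1397 to 3647 higher.

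**Figure D4:**
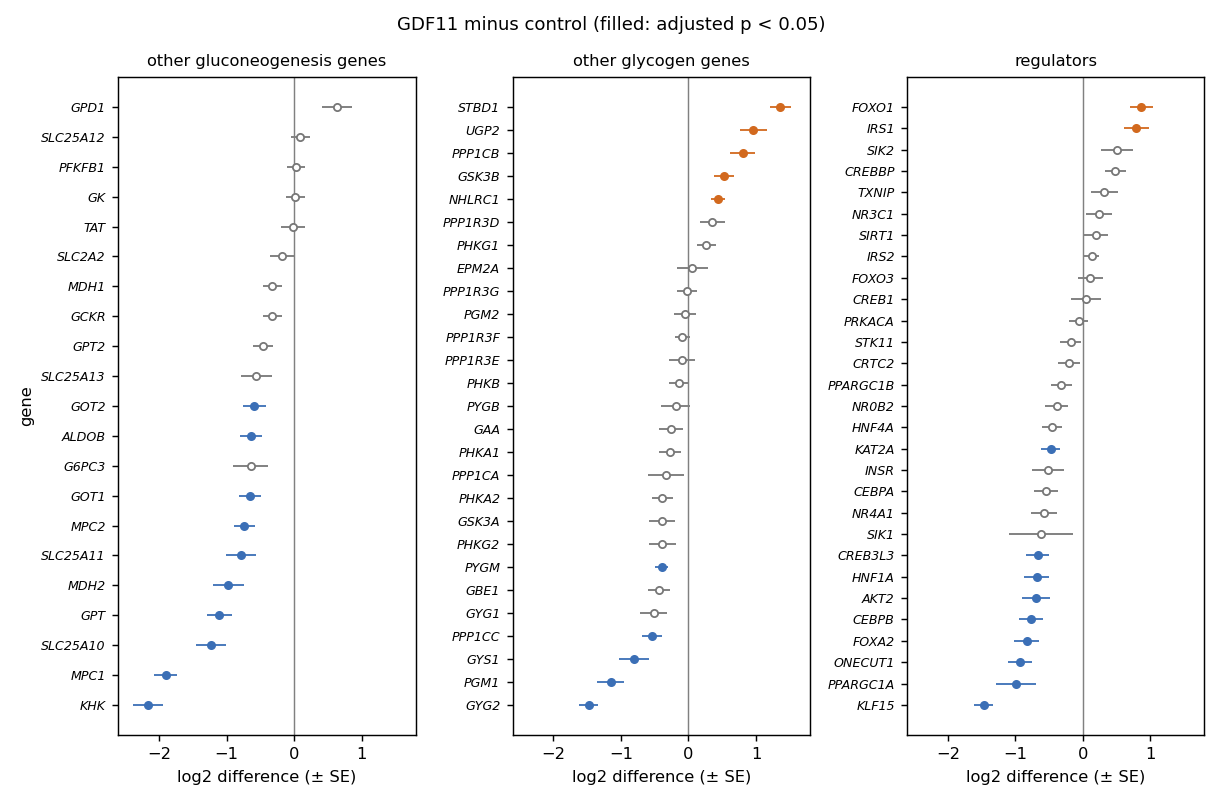
Log2 differences, GDF11 minus control (horizontal axes, limma estimates with bars of 1 SE), of the tested genes of 3 lists (vertical axes): other gluconeogenesis genes, other glycogen genes and regulators. Filled points have an adjusted p under 0.05, orange for higher and blue for lower. The first list has 10 filled points and all are below 0, the second has 5 on each side, and the third has 9 below and 2 above.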

How the data were processed

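The submitters' processing notes name Salmon 1.2.1, Trimmomatic, DESeq2 and GRCh38, whereas the labels' protocols name STAR 2.6 and hg19, and no source used here says which made the table. It holds variance-stabilised log2 values that the authors deposited for 60240 genes. A gene ID table named 96.86% of them. Values were inverted to normalised reads with the lowest value (5.5215) as the only parameter, and the step of 1 read gave the depth. No more than 74.5% of low values were whole reads within 0.01, so no count test was run.

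Genes with a mean at least 0.5 above the lowest value (18723) entered a limma 3.58.1 fit in R 4.3.3 (eBayes with a mean trend, no covariate, two-sided), with Benjamini-Hochberg adjustment over all of them. The script was tested on simulated data. The genes, lists and tests were chosen with earlier results of these data known. The p-values rest on the spread between these cultures, but not on that of a gene alone. For each gene the fit pools the variance of both groups and draws it towards that of genes with a similar mean. The SE is thus partly borrowed from other genes, also for G6PC1, whose group SDs were very unequal. Named were all 10 genes, up to 4 called genes with the lowest p per list and direction, 7 relatives and regulators whatever their result (others that the rule held are not reported here and were left out of the lists), and the 3 tested genes closest in profile to the called member with the lowest p in each role. Positions and promoters are RefSeq's (GRCh38.p14), and transcript lengths and GC content are from a GRCh37 annotation. Replicates of a group differed by more than sampling noise. Same-numbered libraries of the groups were not paired in the main fit. Their deviations correlated across genes at -0.088, 0.38 and 0.48, and those of differently numbered libraries at -0.47 to 0.25.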

Additional observations from a re-analysis of the deposited data

How the results depend on the processing

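Of the called genes, G6PC1 and SLC37A4 kept their call in 18 of 19 alternatives and PPP1R3C in 15 of 19, in the same direction in each. The alternatives reuse the same libraries and are not independent. One of them, an adjusted p under 0.1, cannot end a call. The calls of G6PC1 (-1.81) and SLC37A4 (-0.47) ended with the RNA integrity covariate, and that of PPP1R3C (-0.62) at an adjusted p under 0.01 and without any 1 of the GDF11 libraries; the cause was not tested. Leaving out 1 library in turn gave -2.34 to -1.66 for G6PC1, -1.32 to -0.93 for SLC37A4, -0.67 to -0.58 for PPP1R3C, 0.41 to 0.52 for PYGL, -0.44 to -0.12 for PCK2, -0.39 to 0.039 for PC, -0.00066 to 0.14 for FBP1, -0.59 to -0.25 for PCK1 and 0.22 to 0.51 for PPP1R3B. With quantile normalization PC turned to 0.039 and FBP1 to -0.0037. With the covariate PC turned to 0.54, PCK2 to 0.23, G6PC3 to 0.098 and PYGB to 0.42. Trends on GC content and length were removed as an alternative chosen after seeing the data: PCK1 (-0.58) and PYGL (0.41) were then called, and with control replicate 3 also left out PC (-0.37), PCK1 (-0.71) and PYGL (0.45) were called and PPP1R3B turned to -0.060. PYGL was also called with a filter at 1 above the lowest value (0.45), no mean trend (0.45), quantile normalization (0.59), library weights (0.48) and at an adjusted p under 0.1 (0.45), where PCK1 (-0.46) was called too.

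Over the 10 genes, leaving out 1 library gave 0 to 1 higher and 2 to 4 lower. The number higher was 1 with the filter at 1, quantile normalization, no mean trend, library weights, the replicate block, both removals of trends and an adjusted p under 0.1, and the number lower was 1 with the covariate and 5 with trends and control replicate 3 removed. Among other gluconeogenesis genes leaving out 1 library gave 0 to 1 higher and 4 to 13 lower; the number higher was 1 with quantile normalization, library weights, the covariate, the replicate block, both removals of trends and an adjusted p under 0.1, and the number lower 2 with the covariate and 5 at an adjusted p under 0.01. Among other glycogen genes leaving out 1 library gave 2 to 6 higher and 2 to 10 lower. They were 1 higher and 2 lower with the covariate and 2 higher and 2 lower at an adjusted p under 0.01, and the number lower was 10 with library weights, 8 with trends removed and 14 with control replicate 3 removed as well. Of the regulators, leaving out 1 library gave 1 to 5 higher and 3 to 12 lower. Their number higher was 5 with library weights, 4 with the replicate block, 0 with the covariate and 1 at an adjusted p under 0.01, and their number lower was 3 with the covariate, 14 with trends removed, 14 without control replicate 3 as well and 2 at an adjusted p under 0.01. Counts over all tested genes also moved in part of these settings, and some are given next. A moved count of a list is therefore no result about its genes by itself.

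Over all tested genes, leaving out 1 library gave 1397 to 3647 higher and 955 to 3993 lower. The counts were 4473 and 4554 with library weights, 1149 and 721 with the covariate, 1170 and 791 at an adjusted p under 0.01 and 3701 and 4487 with trends and control replicate 3 removed, and the number lower was 3306 with the replicate block and 3072 with trends removed. Deviations of same-numbered libraries correlated for replicates 2 and 3 but not for replicate 1. Whether same-numbered cultures were handled together was not tested. With the replicate block, PYGL was called (0.45, adjusted p = 0.0255). At the depth of these libraries PCK1, FBP1 and PPP1R3B rest on few reads.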

Other observations

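Among all tested genes with a symbol, the 3 whose centred values over the 6 libraries lay closest to those of G6PC1 were SLC12A3, a sodium-chloride cotransporter gene (root mean square difference 0.227), GNG4, a G protein gamma subunit gene (0.266), and COL2A1, a fibrillar collagen gene (0.282). Their log2 differences were -1.92 ± 0.27, -1.76 ± 0.17 and -1.76 ± 0.19. All 3 had, like G6PC1, their lowest control value in control replicate 1. It was 8.07 for SLC12A3 (against 9.0 and 9.21), 9.96 for GNG4 (against 10.48 and 10.42) and 10.34 for COL2A1 (against 10.97 and 10.45). The GDF11 values of SLC12A3 were 6.63, 6.95 and 6.93. The closest to PPP1R3C were AK4P1, a pseudogene that can share reads with AK4 (0.0275), IPO5, a nuclear import receptor gene (0.0470), and GMNN, for the replication licensing inhibitor geminin (0.0510). They were taken from the 18723 tested genes by likeness in 6 libraries, so the likeness is a description only.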
